A study of Rattus norvegicus with 6 samples.

Results

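The 10 genes described here encode the cell-surface reception and the GLI branch of Hedgehog signalling: the receptor Ptch1, the signal transducer Smo, the co-receptors Boc, Cdon and Gas1, the ciliary receptor Gpr161, the transcription factors Gli2 and Gli3, and the GLI regulators Sufu and Kif7. They were taken by symbol from a deposited table of 19088 gene rows, where each symbol stood on 1 row, and from a table of 24343 transcripts, which listed 12 transcripts for them. Poly(A) RNA was sequenced in 6 samples of primary cells of the nucleus pulposus, which fills the centre of an intervertebral disc, from Sprague Dawley rats. Of these, 3 had received recombinant Sonic hedgehog (rShh) dissolved in DMSO, at 200 ng/ml for 48 h, and 3 had received DMSO alone (Control). Both groups were cultured in DMEM/F12 with 10% fetal bovine serum. Whether samples within a group are separate animals or cultures is not in the labels, so the tests rest on sample-to-sample spread that may be technical only.

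As background, Hedgehog ligand binds Ptch1 together with Boc, Cdon or Gas1, and this releases Smo from the inhibition that Ptch1 exerts on it. Active Smo gathers in the primary cilium while Gpr161 leaves it, protein kinase A activity there falls, and GLI proteins are freed from Sufu and are no longer cut into repressors. Ptch1 is itself a direct GLI target in most tissues, and so restrains the signal that induces it. In embryonic tissues, Gas1, Cdon and Boc are known to be turned down where the pathway is active. In the disc, Sonic hedgehog is made by the notochord, from which the nucleus pulposus forms.

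Gene counts summed to 50758195 to 55501124 per library in Control and to 65116846 to 70031072 in rShh, and mitochondrial transcripts took 1.97% to 2.28% and 3.25% to 3.36% of them. Transcripts of the Y chromosome differed between the groups: Ddx3, Eif2s3y and Kdm5d had 0 counts in each Control library and 12498 to 13614 counts together in each rShh library. All genes placed on the Y chromosome together had 300 to 381 counts per Control library and 14565 to 15659 per rShh library. In every comparison here, the ligand therefore cannot be told apart from the sex or donor of the cells, or from whatever else separates the groups. Of 14 nucleus pulposus and notochord markers, 9 were tested, of which 3 were higher and 5 lower in rShh (edgeR; of all genes tested, 31.5% were higher and 28.8% lower), with summed levels of 92.6 to 98.1 FPKM (fragments normalised for transcript length and sequencing depth) in Control and 170 to 174 in rShh. The sum rose through Acan (mean FPKM 6.80 in Control and 71.0 in rShh) and Hif1a (16.5 and 53.5), and Sox9 was higher too (0.571 and 1.15). The 5 lower markers were Cd24 (23.2 and 7.04), Krt8 (5.42 and 0.905), Pax1 (26.6 and 20.4), Foxa2 (0.785 and 0.219) and Col2a1 (0.296 and 0.0183). Foxf1 did not pass, Krt18 was below the count filter (9, 0 and 0 in Control, 0, 0 and 4 in rShh), and no gene row carried the symbol Tbxt, Krt19, Car12 or Car3. Of 5 smooth muscle and pericyte markers, 4 were higher in rShh (Myh11, Des, Rgs5 and Cspg4), with sums of 1997 to 2990 FPKM in Control and 3222 to 3352 in rShh. Most of that sum was Acta2 (mean FPKM 2563 and 3204), which did not pass (edgeR adjusted p = 0.0507). Of 5 fibroblast markers, 3 were higher and 2 lower (5180 to 5509 and 3221 to 3267 FPKM, most of it Col1a1 at 5049 and 2368), and of 5 annulus and tendon markers, 4 of them tested, 2 were higher and 2 lower (116 to 156 and 62.1 to 65.8 FPKM). The part of these differences in the results was not tested.

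The promoters of Ptch1 and Smo, the receptor pair whose levels moved in opposite directions, are shown because the consensus site of GLI proteins, GACCACCCA, was searched on both strands of the RefSeq promoter windows (GRCr8, 250 bases before to 50 after a gene's start). Each run is the 250 bases before the start, 5′ to 3′ on the gene's strand, with a match to the 9-base consensus in capitals.
Ptch1 (chr17:1555321-1555570, plus strand): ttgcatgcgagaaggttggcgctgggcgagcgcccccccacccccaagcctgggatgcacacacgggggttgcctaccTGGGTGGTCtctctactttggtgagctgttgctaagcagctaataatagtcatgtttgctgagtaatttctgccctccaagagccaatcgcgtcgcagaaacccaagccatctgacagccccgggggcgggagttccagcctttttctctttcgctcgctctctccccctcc
Smo (chr4:59310834-59311083, plus strand): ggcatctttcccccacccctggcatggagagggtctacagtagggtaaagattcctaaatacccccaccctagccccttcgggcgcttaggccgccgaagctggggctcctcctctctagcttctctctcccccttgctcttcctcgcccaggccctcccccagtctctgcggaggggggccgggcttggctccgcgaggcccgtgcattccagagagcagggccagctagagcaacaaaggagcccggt
Windows were found for 8 of the 10 genes, 9 windows in all since Gpr161 had 2; Kif7 and Gas1 had none. The consensus was present in 1 of the 9, that of Ptch1, as its reverse complement TGGGTGGTC with its first base 172 bases before the start (chr17:1555399-1555407). Over all 33469 windows of the same length, 129 (0.385%) held it. With any base at the fifth position (GACCNCCCA, which overlaps the consensus), 378 windows (1.13%) had a match, and among the 9 windows the Ptch1 site was again the one match. A match is a description of the letters, and this RefSeq start was not matched to either deposited Ptch1 transcript. The window is on the plus strand in GRCr8, whereas the deposited coordinates place Ptch1 on the minus strand. Gli3, on the same chromosome, was on the minus strand in both. The reason was not tested, so the window may not lie upstream of the measured transcripts. GC content of the 9 windows ran from 42.7% (Cdon) to 75.3% (the first Gpr161 window), beside a median of 51.7% over all windows.

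The comparison asked whether cells given rShh held different amounts of these transcripts than cells given its solvent. Ptch1 was higher in rShh. Smo, Gli3, Cdon and Gas1 were lower, and Boc, Gpr161, Gli2, Sufu and Kif7 did not pass the test (edgeR's quasi-likelihood test on the deposited counts, adjusted over 14775 genes, threshold 0.05). That is 5 of 10 genes called, beside 60.3% of all genes tested, with 1 higher (31.5% of all genes tested were higher) and 4 lower (28.8%). The share of the 10 genes called is thus no higher than that of all genes. The groups' values, scaled to library size (CPM), did not overlap for 6 of the 10 genes, 2 higher and 4 lower, beside 68.1% of all genes tested (35.7% higher, 32.5% lower). The median size of the log2 change, without its sign, was 0.27 over the 10 genes and 0.49 over all genes tested, and the signed medians were -0.24 and 0.01. Smo, Ptch1 and Gli3 passed under all 16 alternative settings tried, while the calls of Cdon and Gas1 did not.

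**Figure D1:**
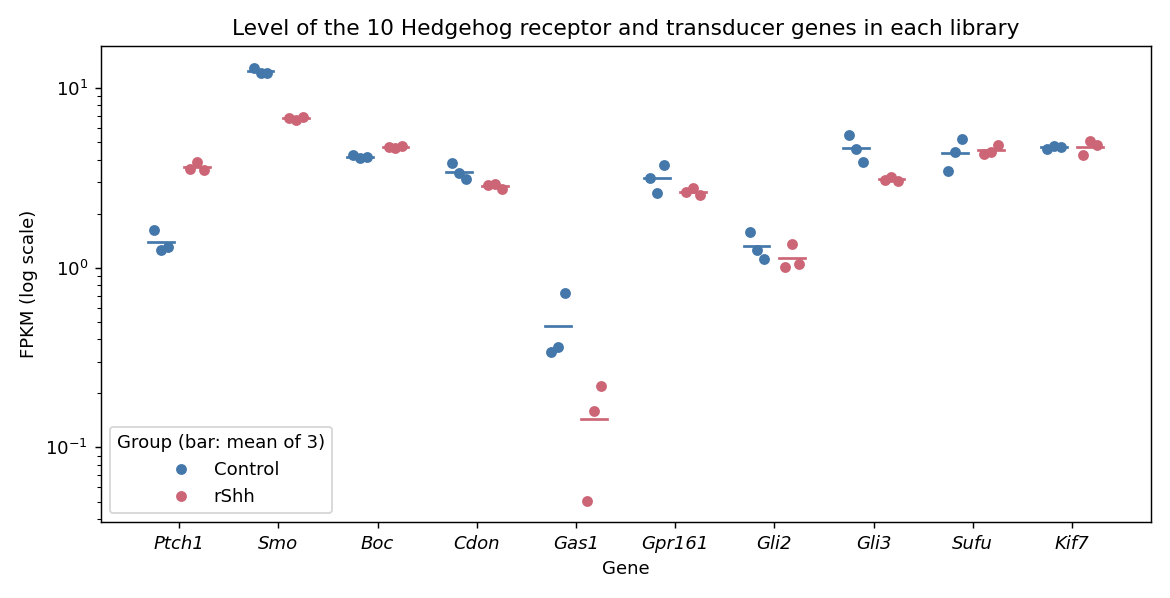
Level of each of the 10 genes in FPKM (log axis) in each of the 6 libraries, with Control in blue, rShh in red and a bar at the mean of 3. Smo is the highest gene in both groups, Ptch1 is higher in every rShh library (3.51 to 3.90) than in every Control library (1.25 to 1.62), and Gas1 is the lowest gene.

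Ptch1 lies on chromosome 17 at 1029048 to 1093873, minus strand, in the coordinates of the deposited tables (their genome build is not given in the sources used here, and all gene positions that follow are in these coordinates). Its level was 1.62, 1.25 and 1.31 FPKM in Control, from 601 to 814 counts, and 3.55, 3.90 and 3.51 FPKM in rShh, from 2042 to 2392 counts. The lowest rShh library was thus above the highest Control library. The fitted log2 change was 1.38 (SE 0.11), with a 95% interval of 1.14 to 1.62 and an edgeR adjusted p of 2.42e-06. On the linear scale that interval runs from 2.21-fold to 3.08-fold.

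Smo, on chromosome 4 at 57019941 to 57042770, plus strand, was at 13, 12.1 and 12.2 FPKM in Control and at 6.82, 6.63 and 6.89 FPKM in rShh. All rShh values lay well below all Control values, and both groups were tight. The log2 change was -0.88 (SE 0.07, 95% interval -1.03 to -0.73, edgeR adjusted p = 2.37e-06), so the rShh level was 0.49 to 0.60 of the Control level. Smo was the most abundant of the 10 genes per length in both groups, and its lead over the next gene, Kif7, narrowed.

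Boc and Cdon are related immunoglobulin and fibronectin type III proteins of the cell surface that present ligand to Ptch1. Boc (chromosome 11, 61083757 to 61158838, plus strand) was at 4.24, 4.06 and 4.15 FPKM in Control and 4.72, 4.62 and 4.78 FPKM in rShh. The groups did not overlap, yet the difference was small and did not pass (log2 change 0.17, SE 0.08, edgeR adjusted p = 0.0856), with a 95% interval of -0.01 to 0.35. Cdon (chromosome 8, 36625733 to 36710949, plus strand) was at 3.81, 3.35 and 3.13 FPKM in Control and 2.90, 2.91 and 2.76 FPKM in rShh. Every rShh value was below every Control value, and Control replicate 1 stood highest. Its log2 change was -0.27 (SE 0.09, 95% interval -0.48 to -0.07, edgeR adjusted p = 0.0258). This call was lost when Control replicate 1 or either of rShh replicates 2 and 3 was left out (edgeR adjusted p = 0.071, 0.0669 and 0.0937) and on log2 FPKM (limma adjusted p = 0.0829 with a pseudocount of 1).

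Gas1, a membrane-anchored co-receptor first described as a growth arrest gene, lies on chromosome 17 at 4846789 to 4847940, plus strand, as a gene of 1 exon. Control libraries had 27, 28 and 51 counts of it (0.340, 0.364 and 0.720 FPKM), and rShh libraries 5, 16 and 20 counts (0.0506, 0.160 and 0.219 FPKM). All rShh values were lower, but the spread within each group was wide, with a coefficient of variation of 43.8% in Control and 56.8% in rShh. The log2 change was -1.69 (SE 0.64, 95% interval -3.11 to -0.28, edgeR adjusted p = 0.0406). The call was lost when any one of 5 libraries was left out, with an edgeR adjusted p of 0.0543 to 0.168, and held without Control replicate 1. With no filter the call was lost as well (edgeR adjusted p = 0.0643).

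Gpr161, the ciliary receptor that raises cyclic AMP and so favours GLI repressor formation, lies on chromosome 13 at 83531018 to 83571505, plus strand. It was at 3.16, 2.61 and 3.73 FPKM in Control and 2.64, 2.78 and 2.54 FPKM in rShh. The groups overlapped, and the log2 change of -0.26 (SE 0.15) did not pass (edgeR adjusted p = 0.164). Its 95% interval allows an rShh level of 0.66 to 1.06 of Control.

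**Figure D2:**
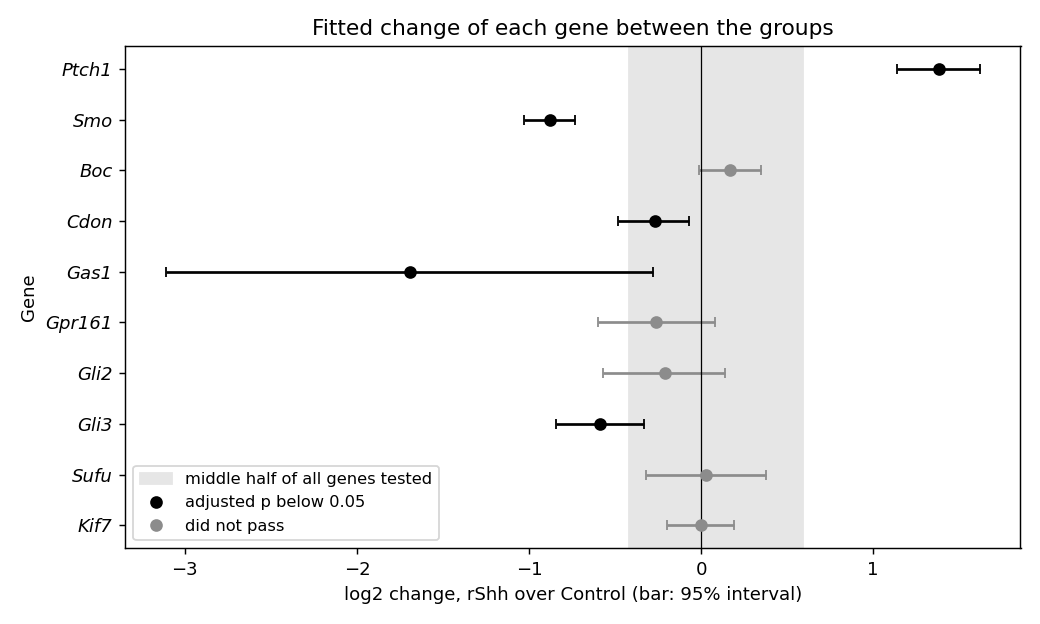
Fitted log2 change of each of the 10 genes, rShh over Control, with its 95% interval (black: adjusted p below 0.05; grey: did not pass), over a grey band for the middle 50% of all genes tested (-0.42 to 0.59). Ptch1 lies to the right of the band, while Smo, Gli3 and Gas1 have their estimates to its left, and Gas1 has the widest interval (-3.11 to -0.28).

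Gli3, whose processed form is the main repressor of Hedgehog targets, lies on chromosome 17 at 52294942 to 52569036, minus strand. It was at 5.47, 4.58 and 3.89 FPKM in Control and at 3.06, 3.21 and 3.05 FPKM in rShh. Control values were spread over a wide range, but each was above all rShh values. The log2 change was -0.59 (SE 0.11, 95% interval -0.84 to -0.33, edgeR adjusted p = 0.00131). Gli2, the main activator, lies on chromosome 13 at 34829139 to 35048444, minus strand. It was at 1.59, 1.25 and 1.12 FPKM in Control and 1.01, 1.36 and 1.05 FPKM in rShh. The groups overlapped and the log2 change of -0.21 (SE 0.16) did not pass (edgeR adjusted p = 0.272), with an interval from 0.67 to 1.10 of Control.

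Sufu, which binds GLI proteins and keeps them inactive, lies on chromosome 1 at 266143818 to 266239016, plus strand. Its level was 3.47, 4.43 and 5.22 FPKM in Control and 4.27, 4.4 and 4.82 FPKM in rShh, so the Control libraries alone covered the range of the rShh libraries. The log2 change was 0.03 (SE 0.16, edgeR adjusted p = 0.881), with an interval from 0.80-fold to 1.31-fold. Kif7, a kinesin of the cilium tip that organises GLI and Sufu there, lies on chromosome 1 at 141434625 to 141451075, minus strand. It was at 4.59, 4.75 and 4.72 FPKM in Control and 4.25, 5.09 and 4.79 FPKM in rShh. Its mean was 4.69 ± 0.087 FPKM in Control and 4.71 ± 0.426 in rShh (SD, n = 3; edgeR adjusted p = 0.979), with an interval from 0.87-fold to 1.14-fold.

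Ordered by mean FPKM, the Control group ran from Smo through Kif7, Gli3, Sufu, Boc, Cdon, Gpr161, Ptch1 and Gli2 to Gas1. Smo stood apart from Kif7, Boc from Cdon, Gpr161 from Ptch1, and Gli2 from Gas1, while the other neighbours overlapped in their 3 values. In rShh the order was Smo, Kif7, Boc, Sufu, Ptch1, Gli3, Cdon, Gpr161, Gli2 and Gas1, and Kif7, Boc and Sufu formed a run of overlapping neighbours, as did Cdon and Gpr161. Ptch1 moved from the eighth to the fifth place and Gli3 from the third to the sixth. The 10 levels summed to 40.0 ± 1.25 FPKM in Control and 34.3 ± 0.907 FPKM in rShh (SD, n = 3). Smo made up 31.0% ± 0.614 of that sum in Control and 19.8% ± 0.812 in rShh, and Ptch1 3.47% ± 0.394 and 10.7% ± 0.462 (SD, n = 3).

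Ratios between 2 genes within a library do not depend on how libraries are scaled. The ratio of Ptch1 to Smo in FPKM was 0.125, 0.103 and 0.108 in Control and 0.522, 0.588 and 0.509 in rShh. Its mean went from 0.112 to 0.54, a difference of 2.27 on the log2 scale (4.83-fold). Gli3 to Gli2 was at 3.45, 3.66 and 3.47 in Control and at 3.02, 2.36 and 2.90 in rShh, lower in all rShh libraries by 1.29-fold. Boc to Cdon was at 1.11, 1.21 and 1.32 and at 1.63, 1.59 and 1.73, higher in all rShh libraries by 1.36-fold. Sufu to the sum of Gli2 and Gli3 ranged from 0.492 to 1.04 in Control and from 0.962 to 1.17 in rShh, and the groups overlapped. For the first 3 ratios the two-sided exact permutation p was 0.1, the smallest that 3 samples against 3 allow, and it was 0.2 for the last, with adjusted values over the 4 ratios of 0.133 and 0.2. The design cannot take any of them below 0.05.

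**Figure D3:**
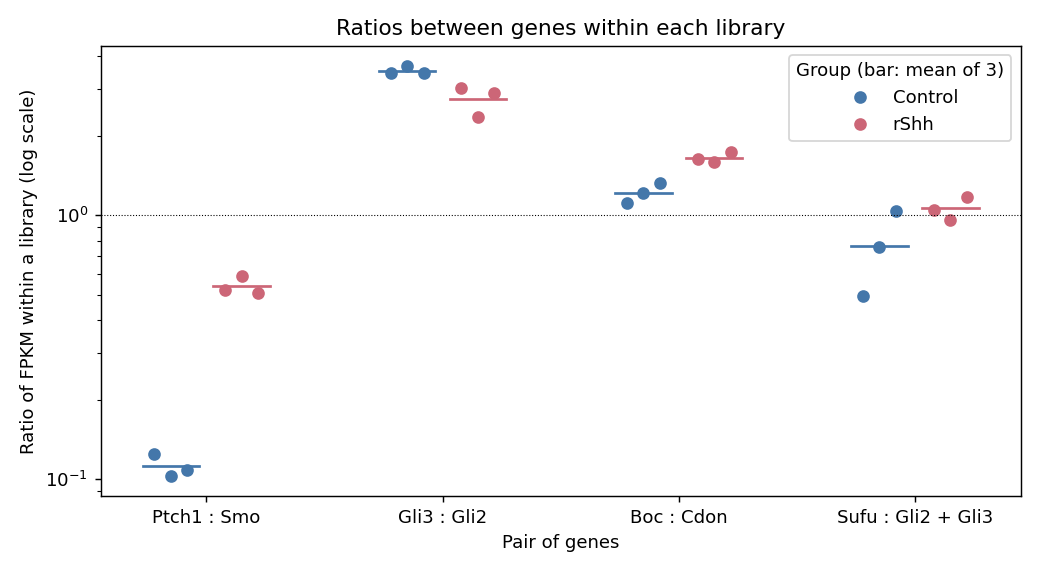
Ratio of FPKM between genes within each library (log axis), with Control in blue, rShh in red and a bar at the mean of 3. The Ptch1 to Smo ratio is 0.103 to 0.125 in Control and 0.509 to 0.588 in rShh, while the Sufu ratio overlaps between the groups.

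Transcripts were compared with the same edgeR test over 18180 transcripts. Of the 12 transcripts of these genes, 2 were higher and 4 lower in rShh, and 6 did not pass, beside 45.1% of all transcripts called (23.8% higher, 21.3% lower). For 8 genes the table listed 1 transcript, so its values repeat those of the gene. Of these, Gli3 and Cdon passed as transcripts (log2 change -0.59 and -0.28, edgeR adjusted p = 0.00934 and 0.0417) and Gas1 did not (edgeR adjusted p = 0.0727). Cdon did not pass with no filter, with limma on log2(FPKM + 1), with the replicate number as a block or without any one of 5 libraries, and its transcript call is therefore weak.

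Ptch1 and Smo had 2 transcripts each. The long Ptch1 transcript (24 exons, 7356 nt, 1029048 to 1093873) was at 1.59, 1.23 and 1.33 FPKM in Control and 3.30, 3.82 and 3.18 FPKM in rShh (log2 change 1.3, SE 0.12, edgeR adjusted p = 0.000455). It held 97.4% ± 1.55 of the gene's counts in Control and 91.8% ± 3.59 in rShh (SD, n = 3). The other Ptch1 transcript (23 exons, 4305 nt, 1032240 to 1085885) starts 7988 bp further downstream and was singled out after its values were seen, since it held under 10% of the counts. It had 29, 21 and 5 counts in Control and 190, 101 and 229 in rShh, a log2 change of 2.96 (SE 0.67, edgeR adjusted p = 0.0128). Its share was 3.56%, 3.47% and 0.832% in Control and 9.12%, 4.22% and 11.2% in rShh, higher in every rShh library.

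The shorter-spanning Smo transcript (11 exons, 3028 nt, 57034675 to 57042770), which starts 14734 bp downstream of the other, was the main one. It was at 12, 9.90 and 9.96 FPKM in Control and 5.83, 6.37 and 6.44 FPKM in rShh (log2 change -0.79, SE 0.09, edgeR adjusted p = 0.000909). The Smo transcript of 12 exons (2382 nt, 57019941 to 57041779) was at 3.09, 4.53 and 4.56 FPKM in Control and 2.24, 1.29 and 1.57 FPKM in rShh (log2 change -1.27, SE 0.28, edgeR adjusted p = 0.0116). The call of the 12-exon transcript was lost with the replicate number as a block (edgeR adjusted p = 0.0502). Both fell in the reported fit, and all rShh values were below all Control values for each. The 12-exon transcript held 16.8%, 26.5% and 26.5% of the Smo counts in Control and 23.2%, 13.7% and 16.1% in rShh, so the shares overlapped.

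Whether a gene's transcripts kept their proportions was tested with edgeR's diffSpliceDGE over 6096 transcripts, of which 1.28% were called (0.722% with a higher and 0.558% with a lower share in rShh). For Ptch1 and Smo, diffSpliceDGE called 0 of 4 transcripts, and 1 of 4 was under 0.05 before adjustment. That was the 23-exon Ptch1 transcript, with an edgeR p of 0.0348 and an adjusted p of 0.732. No other tool was run on shares. On simulated counts this test recovered 24% of transcripts changed 8-fold and 4% of those changed 2-fold over 5800 transcripts.

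**Figure D4:**
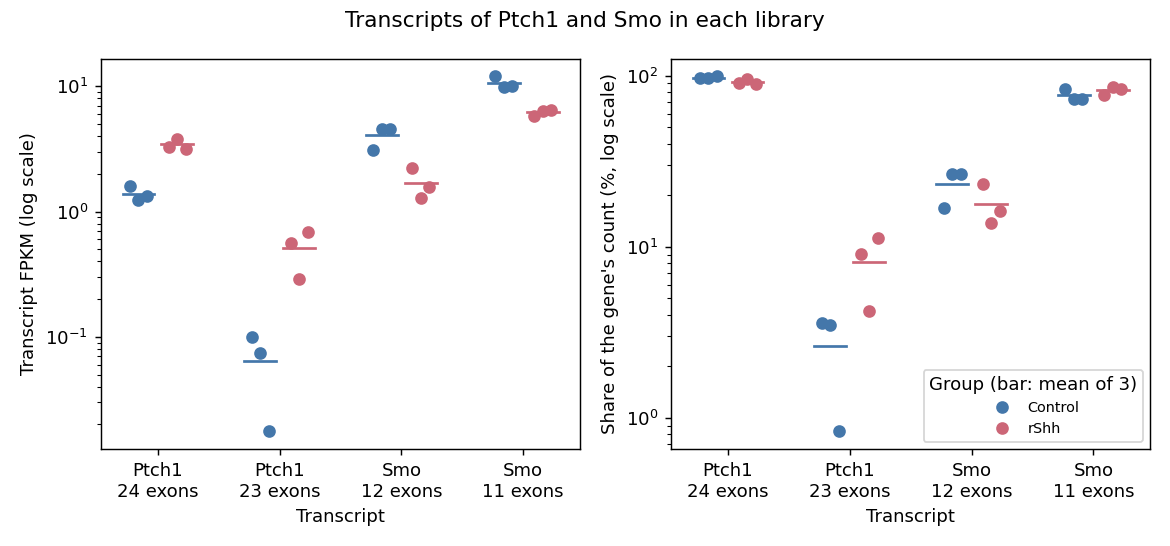
The 2 transcripts each of Ptch1 and Smo in every library, as FPKM (left, log axis) and as a share of the gene's counts (right, log axis), with Control in blue, rShh in red and a bar at the mean of 3. The 23-exon Ptch1 transcript lies at 0.832% to 3.56% of Ptch1 counts in Control and 4.22% to 11.2% in rShh, while the Smo shares overlap.

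The genes around these 10 in the pathway, 76 in 5 lists by role, moved in both directions. Of 66 tested, 24 were higher and 22 lower by the edgeR test, and 20 did not pass. The median log2 change was 0.13, beside 0.01 over all genes tested. The share called, 46 of 66, can be read beside the 60.3% of all genes.

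Among ligands and the proteins that release them, 1 of 6 tested was higher and 2 were lower (31.5% and 28.8% of all genes tested). Scube3, a secreted protein that helps free lipid-modified ligand, rose from 16.8 ± 1.56 to 55.9 ± 2.06 CPM (mean ± SD, n = 3). Disp1, the transporter that exports the ligand, fell from 15.7 ± 1.98 to 11.8 ± 0.575 CPM. Scube1 had 15, 21 and 9 counts in Control and 0, 0 and 4 in rShh (edgeR adjusted p = 0.0136). That call rests on few counts, and when Control replicate 2 or either of rShh replicates 1 and 2 was left out, the edgeR adjusted p was 0.0573, 0.0542 and 0.0584. Scube1 met the count filter through the Control libraries alone, where it was higher. With no filter its edgeR adjusted p was 0.0609. Ihh and Dhh had too few counts to be tested.

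Among membrane binders and modulators of Smo, 3 of 13 tested were higher and 6 lower (31.5% and 28.8% of all genes tested). Arl13b, a small GTPase of the ciliary membrane, rose from 10.3 ± 0.978 to 22.7 ± 3.17 CPM. Lrp2, an endocytic receptor that can bind Sonic hedgehog, fell from 3.13 ± 0.310 to 0.945 ± 0.065 CPM. Evc and Evc2, ciliary partners of Smo, were lower as well, at 33.5 ± 2.08 and 28.6 ± 1.25 CPM and at 49.2 ± 3.09 and 40.7 ± 1.26 CPM. Iqce and Efcab7, from the same list, were higher (log2 change 0.41 and 0.83, edgeR adjusted p = 0.0139 and 0.0107). Evc, Evc2, Iqce and Efcab7 were picked after their values were seen.

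Of 20 kinases and ubiquitin ligases that act on GLI proteins, 9 were higher and 7 lower (31.5% and 28.8% of all genes tested). The regulatory subunit Prkar2a and the catalytic subunit Prkacb of protein kinase A, which phosphorylates GLI proteins, rose from 23.4 ± 1.62 to 46.2 ± 1.56 and from 19.9 ± 1.41 to 35.9 ± 0.893 CPM. Csnk1a1, casein kinase 1 alpha, rose from 156 ± 12.7 to 235 ± 1.34 CPM. Other genes of these families did not rise. Prkar1a fell from 230.9 ± 6.60 to 209.6 ± 4.72 CPM, and Prkaca did not pass (edgeR adjusted p = 0.0968). Csnk1d and Csnk1e fell from 182.5 ± 4.86 to 157.3 ± 1.46 and from 64.53 ± 4.27 to 50.15 ± 2.00 CPM. Prkar1a, Prkaca, Csnk1d and Csnk1e were picked after their values were seen. Of 10 genes of cyclic AMP control and Gpr161 trafficking, 2 were higher and 4 lower (beside the same 31.5% and 28.8%). Adenylyl cyclases moved apart: Adcy6 fell from 148 ± 2.81 to 101 ± 2.97 CPM, while Adcy5 and Adcy9 rose from 2.94 ± 0.888 to 10.0 ± 1.20 and from 6.39 ± 0.847 to 12.6 ± 0.073 CPM.

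Of 18 GLI target genes tested other than Ptch1, 9 were higher, 3 lower and 6 did not pass, beside 31.5% higher and 28.8% lower among all genes tested. Their median log2 change was 0.85, in a range of -1.31 to 5.97. The list was chosen with earlier results of these data known, so its excess of higher genes is not an independent result. Hsd11b1, which regenerates active glucocorticoid, and Prdm1, a transcriptional repressor, rose from 17.1 ± 1.80 to 137 ± 5.77 and from 6.81 ± 0.887 to 25.1 ± 3.33 CPM. Bmp4, a growth factor, fell from 631 ± 23.2 to 404 ± 7.62 CPM. The feedback genes that stand closest to Ptch1 were scarce. Gli1, the activator that is itself a target, had 22, 0 and 0 counts in Control and 25, 35 and 30 in rShh and did not pass (edgeR adjusted p = 0.200). Without Control replicate 1, the only Control library with Gli1 counts, its edgeR adjusted p was 0.00131. It was 0.403 without Control replicate 2, 0.389 without Control replicate 3 and 0.283 without rShh replicate 1. Hhip, a membrane protein that traps ligand, had 0, 0 and 4 counts in Control and 0, 12 and 9 in rShh and was not tested.

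**Figure D5:**
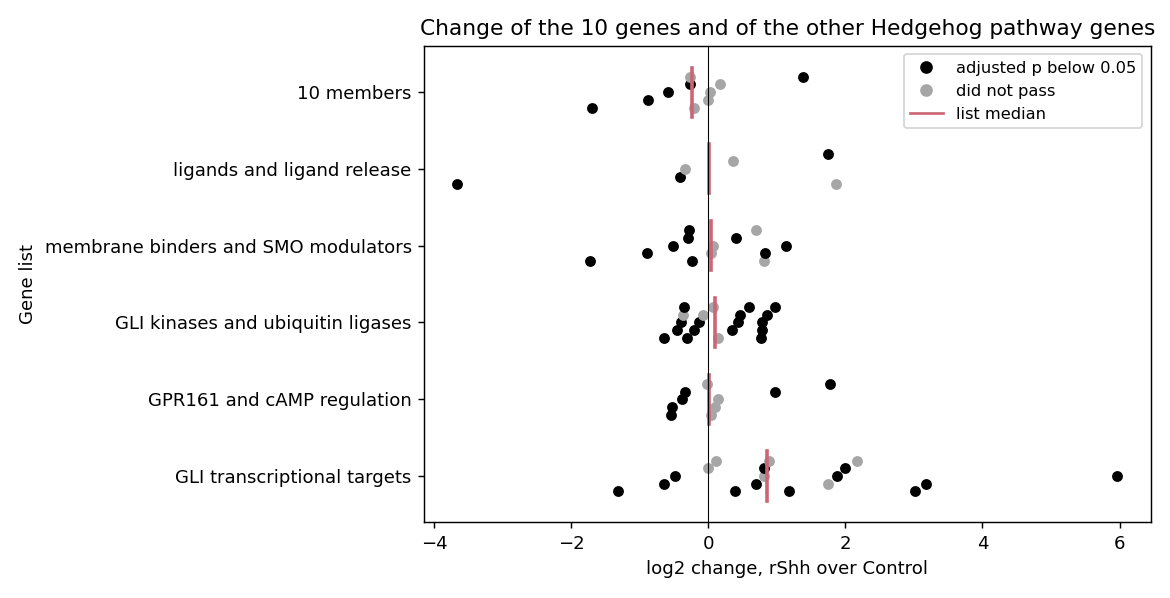
Log2 change, rShh over Control, of each tested gene in the 10-gene set and the 5 other pathway lists (black: adjusted p below 0.05; grey: did not pass; red line: list median). The target list has a median of 0.85 and the 10 genes one of -0.24, and every list holds genes on both sides of 0. The lists were chosen with earlier results of these data known.

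The genes whose profile over the 6 libraries was nearest to that of Ptch1, among 11117 others with a symbol and a mean of at least 1 CPM, were Cd248, Bbs7 and Adam17. The measure was the Euclidean distance between log2 CPM values centred on each gene's mean, and it was 0.0568, 0.0953 and 0.117. Cd248 had means of 2.94 ± 0.411 and 7.68 ± 0.348 CPM in Control and rShh, and Bbs7 8.94 ± 1.35 and 23.1 ± 1.86. Nearest to Smo were Lhpp, Csf1 and Lsm7, at distances of 0.0952, 0.0997 and 0.103. Csf1 had means of 802 ± 38.2 and 445 ± 9.0 CPM. With 2 groups, such a distance mostly reads the size of the difference between them.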

How the data were processed

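RNA of 6 samples was sequenced as 150-nt paired-end reads after poly(A) selection, with dUTP in the second strand and 8 PCR cycles, from RNA with an integrity number above 7.0, per the labels' protocols. The submitters' processing notes name HISAT2 2.0.4 and StringTie 1.3.4d, with cutadapt 1.9, edgeR and DESeq2. What each tool did, strand handling and the build were not given in the sources used here. The authors deposited whole-number counts, not normalized, and FPKM values (a name taken per the file headers, normalised for length and depth) for genes and transcripts. Gene counts equalled the summed transcript counts in 99.998% of values. Counts split between transcripts of one gene are estimates.

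Genes and transcripts were filtered with filterByExpr (minimum count 10), scaled by TMM and tested two-sided with edgeR 4.0.16 in R 4.3.3 (glmQLFit, glmQLFTest, group as the only term), with Benjamini-Hochberg adjustment over all features tested and a threshold of 0.05. The SE is the log2 change divided by the root of F, and intervals are at 95%. Alternatives used DESeq2 1.42.0, limma 3.58.1 and other scalings and filters. Libraries of 1 group differed by more than sampling noise (chi-square per degree of freedom 10.5 to 50.5). On simulated counts with 200 changed genes, edgeR recovered 46% of 1.5-fold and 74% of 2-fold changes for genes over 14516 genes, and 8% and 24% for transcripts over 17676 transcripts. A far larger part was called in the data (60.3% of genes and 45.1% of transcripts), which alters the adjustment. The simulated rates therefore need not hold for the reported tests.

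The genes, lists and tests were chosen with earlier results of these data known. The genes named are the 10, Gli1 and Hhip, up to 3 genes with the smallest p in each other list, the 3 genes nearest in profile to Ptch1 and to Smo, and transcripts with at least 10% of a gene's counts in a group. Some genes that meet this rule are not reported here. The tables held 0 other value columns. Promoter windows are from RefSeq (GRCr8).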

Additional observations from a re-analysis of the deposited data

How the results depend on the processing

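Ptch1, Smo and Gli3 kept their direction and their call under all 16 alternatives, with log2 changes of 0.96 to 1.49, -0.95 to -0.78 and -0.70 to -0.45. The count of called genes among the 10, 5 in the reported fit, was 3 with limma on log2(FPKM + 1) and 3 with limma on log2(FPKM + 0.1), where 9 genes passed the minimum of 1 FPKM and so Gas1 was not among them. It was 3 to 4 when 1 library was left out, and 3 without rShh replicate 2 and without rShh replicate 3. Cdon lost its call under 6 of 16 alternatives and Gas1 under 7 of 14. Sufu and Kif7, whose log2 changes lay near 0, changed sign without reaching the threshold: Sufu was at -0.04 with upper-quartile scaling, at -0.12 without Control replicate 1 (-0.13 as a transcript) and at -0.02 without rShh replicate 3 (-0.02 as a transcript). Kif7, at -0.00 in the reported fit, was at 0.00 under the 3 limma settings (0.00 as a transcript), 0.01 without Control replicate 2 (0.00 as a transcript), 0.00 without Control replicate 3 (0.00 as a transcript) and 0.05 without rShh replicate 1 (0.05 as a transcript). Leaving out 1 library at a time, Sufu ran from -0.12 to 0.18 (transcript -0.13 to 0.18) and Kif7 from -0.05 to 0.05 (transcript -0.06 to 0.05). The causes were not tested. Same-numbered Control and rShh libraries did not deviate together (correlations -0.083, -0.007 and -0.001), and 0 of 6 libraries correlated best with its own number. With 3 libraries in each group, these correlations cannot exclude that the numbers pair the samples, which the labels do not state. With the replicate number as a block, 4 of the 10 genes were called, Gas1 being lost (edgeR adjusted p = 0.0576), and 8440 of all genes against 8914. Of the 12 transcripts 4 were called under the block against 6, those lost being the 12-exon Smo transcript (edgeR adjusted p = 0.0502) and that of Cdon (0.0611), and 44 of the other pathway genes against 46. Upper-quartile scaling moved the median of all genes by -0.067 (log2) and turned the split of all called genes from 4657 higher and 4257 lower to 4273 and 4798. Genes with few counts, such as Gas1, Gli1, Hhip and Scube1, are limited by depth, since 3 counts in a library are 0.043 to 0.059 CPM. Floors and intervals cover the spread between these libraries or counting error only.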

Other observations

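Within the Control group, replicate 1 had the highest CPM of the 3 libraries for 6 of the 10 genes (Ptch1, Smo, Boc, Cdon, Gli2 and Gli3) and the lowest for 3 (Gas1, Sufu and Kif7). The spread of Sufu (coefficient of variation 20.9% in Control and 5.76% in rShh), Gpr161 (17.7% and 4.06%) and Gli3 (16% and 2.13%) was wider in Control. The coefficient was larger in Control for 6 of the 10 genes and for 70.5% of all genes tested, with medians over all genes of 11.4% in Control and 6.84% in rShh. Among GLI targets picked after their values were seen, the T-box factors Tbx3 and Tbx2 went from 0.128 ± 0.122 to 8.28 ± 0.687 CPM and from 0.415 ± 0.484 to 3.71 ± 0.263 CPM (mean ± SD, n = 3; edgeR adjusted p = 2.25e-06 and 0.00373). Tbx3 had 8, 13 and 0 counts in Control and Tbx2 had 0, 16 and 48. Both met the count filter only with the rShh libraries, where they were high, so these p-values are not independent support. Foxf1, a forkhead factor picked likewise, was at 47.1 ± 4.74 and 50.9 ± 3.59 CPM (edgeR adjusted p = 0.299).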
